A study of Mus musculus with 18 samples.

Results

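The genes described here encode the proteins of the cytosolic ribosome, here read in CD4 T cells of the mouse spleen, one cell at a time. They were chosen by symbol, as Rpl or Rps followed by a number and at most one letter from a, l, x and y, together with Rplp0, Rplp1, Rplp2 and Rpsa, and by a total of at least 100 unique molecular identifiers (UMIs, each counting 1 captured transcript). The symbol rule found 80 genes, and 78 of them reached the minimum, 47 of the large and 31 of the small subunit, among 33006 genes in the matrix and 17739 with a UMI. Just inside the minimum lay Rpl39l with 256 UMIs, Rpl24 with 2488 and Rps27l with 19253, and the next gene, Rpl27a, had 128489. Rpl10l with 3 UMIs and Rpl3l with 1 fell outside. The rule also leaves out ribosomal protein genes with other kinds of names, such as Rps3a1 and Fau, which were counted with the related genes. The 78 genes held 41338604 of 119305036 UMIs, or 34.6%.

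RNA was counted with 10x Genomics kits that tag transcripts at the 3′ end. The first experiment (V2 kit) compared 2 samples of 3-week-old males with the Foxp3DeltaEGFPiCre allele, called ∆Foxp3, and a YFP reporter at ROSA (B6 background), with 2 samples of 3-week-old WT males that carry GFP behind Foxp3 (B6 Foxp3-IRES-GFP). The second (V3 kit) held 2 samples of ∆Foxp3 males of the same strain and age, 2 of WT males aged 9 weeks (B6 Foxp3-IRES-GFP x CD45.1), and, from 9-week-old males of that WT strain, 2 of sorted GFP+ regulatory T cells (Treg) and 2 of sorted GFP- conventional T cells (Tconv). It also held 3 samples each of ∆Foxp3 and WT cells from mixed bone marrow chimeras, in which both kinds of marrow developed in the same irradiated mouse. Recipients were 7 weeks old, received 1000 rad and marrow of both donors (50% each) depleted of CD3+ cells, and were sampled 10 weeks later, while the age label gives 16 weeks. The ∆Foxp3 donor carried CD45.1 and CD45.2 and the WT donor CD45.1, and these marks were used to sort the chimera cells apart. All samples were DAPI-, TCRβ+ and CD4+ cells of male spleens, and every group carries a fluorescent reporter allele. In the V3 intact mice genotype goes together with age (3 against 9 weeks) and with the CD45.1 strain, and these cannot be told apart.

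A cytosolic ribosome joins a small subunit, which decodes the messenger RNA, and a large subunit, which forms the peptide bond. Their proteins are made in near equal numbers, and in mammals the messenger RNAs of most of them begin with a C followed by a run of pyrimidines, the 5′ terminal oligopyrimidine (TOP) motif, through which mTOR signalling controls their translation. T cells leaving the resting state make more ribosomes, and the ribosomal protein messages are among the most abundant in a resting lymphocyte. A few members have a second gene: Rps27l is a paralog of Rps27 known as a p53 target, and Rpl39l is an autosomal paralog of the X-linked Rpl39 best known from testis.

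RefSeq start sites of GRCm38.p6 were found for 58 of the 78 genes. A run of at least 8 C or T letters overlapping the 5 bases on either side of the start stood in 23 of the 58 (39.7%), against 2962 of all 27025 genes with a promoter entry (11%). The median longest run there was 6 letters in the members and 4 in all genes. Other promoter motifs were counted within 250 bases before and 50 after the start, on either strand. The letters CCGGAAG, a core bound by ETS factors such as GABP, were present in 25 of 58 members (43.1%) and in 9.93% of all genes. A GC box of the letters GGGCGG, bound by Sp1, was present in 35 of 58 members (60.3%) and in 38.2% of all genes. The TATA box core TATAAA was present in 6 members (10.3%) and in 15.7% of all genes. For a gene with several start sites, any of them could hold the run or motif. The windows below give the 30 bases before the start and the 15 from it, for the member with the highest level (Rps24), for Rpl12, which stands with it in the intact mice, and for the 2 paralog pairs. Capitals mark a C or T run of at least 8 letters that overlaps the 5 bases on either side of the start. Such a run, also among those counted above, can end before the start and so lie outside the transcript. A second start site, without such a run, is on record for Rps24 and for Rps27l.

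Rps24, chr14:24490648-24490692, plus strand: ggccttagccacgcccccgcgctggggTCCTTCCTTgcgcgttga

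Rpl12, chr2:32961682-32961726, plus strand: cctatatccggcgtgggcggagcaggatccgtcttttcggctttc

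Rps27, chr3:90213634-90213678, minus strand: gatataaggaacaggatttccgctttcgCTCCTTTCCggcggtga

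Rps27l, chr9:66946056-66946100, plus strand: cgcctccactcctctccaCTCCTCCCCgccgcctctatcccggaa

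Rpl39, chrX:37085208-37085252, minus strand: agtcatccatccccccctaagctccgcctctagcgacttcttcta

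Rpl39l, chr16:10170198-10170242, plus strand: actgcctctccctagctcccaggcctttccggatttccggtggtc

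Rps24 and Rps27 carry a run of 9 letters across the start, Rps27l one of 9 that ends before the start, and Rpl12 and Rpl39l one of 7, which is under the minimum. The coding sequences show how far each paralog can be told from its partner by sequence. They are GENCODE M21 coding exons of GRCm38, read 5′ to 3′ with the stop codon, while the coordinates leave the stop codon out, and capitals mark the bases that differ between the 2 paralogs of a pair.

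Rps27, chr3:90212728-90213615, minus strand: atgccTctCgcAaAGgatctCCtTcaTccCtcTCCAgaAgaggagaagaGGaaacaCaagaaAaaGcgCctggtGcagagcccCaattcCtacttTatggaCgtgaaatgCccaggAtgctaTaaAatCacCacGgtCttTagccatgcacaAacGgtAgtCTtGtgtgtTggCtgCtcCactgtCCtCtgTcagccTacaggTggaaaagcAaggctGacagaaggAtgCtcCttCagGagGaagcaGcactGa

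Rps27l, chr9:66946175-66949354, plus strand: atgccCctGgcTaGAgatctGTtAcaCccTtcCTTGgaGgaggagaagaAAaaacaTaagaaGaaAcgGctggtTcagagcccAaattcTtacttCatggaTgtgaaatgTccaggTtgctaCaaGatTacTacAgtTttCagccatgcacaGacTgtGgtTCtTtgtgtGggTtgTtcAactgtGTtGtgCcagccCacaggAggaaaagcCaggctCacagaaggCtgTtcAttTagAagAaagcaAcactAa

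Rpl39, chrX:37082704-37085127, minus strand: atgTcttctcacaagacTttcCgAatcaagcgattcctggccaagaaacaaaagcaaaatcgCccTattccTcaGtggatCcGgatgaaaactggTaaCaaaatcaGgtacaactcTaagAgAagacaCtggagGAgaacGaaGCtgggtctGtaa

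Rpl39l, chr16:10174310-10174462, plus strand: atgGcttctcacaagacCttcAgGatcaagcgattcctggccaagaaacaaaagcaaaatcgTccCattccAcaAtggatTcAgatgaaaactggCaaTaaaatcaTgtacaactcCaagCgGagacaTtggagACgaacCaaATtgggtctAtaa

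Rps27 and Rps27l, with 4 coding exons each, matched at 194 of 255 bases (76.1%), and 53 of the 61 differences fell on the third base of a codon. The longest run shared by their transcripts was 11 bases. Rpl39 (3 coding exons) and Rpl39l (1 coding exon) matched at 133 of 156 bases (85.3%), with 16 of 23 differences on the third base and a longest shared run of 38 bases, or 25 within the last 300 bases of the transcripts, where the tags lie. The sources used here do not state how reads fitting several copies were assigned. In the matrix, 25 symbols of ribosomal protein pseudogenes held 0.161% of UMIs.

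Each V2 sample had 1442 to 5271 cells with 4267372 to 14887898 UMIs in total, each V3 sample 148 to 2136 cells with 955097 to 11884169, and a median of 2774 to 3143 UMIs per cell was reached in V2 and of 4731 to 8857 in V3. Values are therefore set side by side only within a kit. Every one of 10 T cell markers was detected in all groups. The paired V3 samples of a group outside the chimeras share a hashtag across both 10x channels, which leaves their p-values possibly resting on technical spread within a mouse, and the V2 labels name no separate animals. The 10x channel moved with the level of these genes: the median log2 difference between the second and the first channel was -0.05 to -0.21 over the 6 V3 groups, and the highest member was Rpl27a in 3 groups (up to 0.31) and Rps27l in the other 3 (up to 0.39). In 2 chimera samples (∆Foxp3 2 and WT 1) the deposited strain column goes against the title and the sort gate, which match each other and were followed, and 102 of 26549 barcodes occur in more than 1 library.

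Levels differed widely among the 78 genes. In CPM (a gene's UMIs scaled to a common library total, where a transcript gives 1 UMI whatever its length), averaged over the 14 V3 samples, Rps24 was highest with 10868 ± 2684 (SD), followed by Rps29 with 9669 ± 2393, Rpl39, which lines the peptide exit tunnel, with 8629 ± 957, Rplp1, an acidic protein of the stalk that recruits elongation factors, with 8620 ± 1865, and Rps16 with 7571 ± 1518. The SD spans samples of all V3 groups, so it does not measure how firm this order is. Rps24 was above Rps29 in every V3 sample. Altogether 67 of the 78 genes were among the 100 genes with the highest mean CPM. At the low end stood Rpl15 with 954 ± 102 and Rpl31 with 842 ± 85.3. Apart from all others lay Rps27l with 159 ± 48.4, Rpl24 with 26.0 ± 4.42 and Rpl39l with 1.85 ± 3.32. Rps27l and Rpl39l are the paralogs described above, and Rpl24 is not one of these. Whether the low count of Rpl24 follows from how its reads were assigned was not tested. The genes lie on 19 chromosomes, and each of the 78 has 1 protein-coding entry in GENCODE M21.

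Summed over the 78 genes, the share of UMIs was lower in ∆Foxp3 than in WT cells of intact mice, higher in ∆Foxp3 than in WT cells of the chimeras, and lower in sorted Treg than in sorted Tconv. In the V3 intact mice the ∆Foxp3 samples were at 26.5% and 25.5% and the WT samples at 37.0% and 35.2%. Their means were 26.0% ± 0.723 and 36.1% ± 1.28 (SD, n = 2 each), a difference of -10.1 percentage points. In the V2 mice, both genotypes aged 3 weeks, the ∆Foxp3 samples were at 34.5% and 31.3% and the WT samples at 37.6% and 37.9%, a difference of -4.82 points. Neither pair of groups overlapped, but 2 samples against 2 cannot give a p below 0.333 in an exact permutation test, and that value was reached in both. The samples also differed in make-up. Cells annotated as activated Tconv were 460 of 1001 and 444 of 936 in V3 ∆Foxp3 samples. In V3 WT samples they were 119 of 814 and 70 of 352. In V2 they were 717 of 3290 and 551 of 1442 in ∆Foxp3 and 590 of 5271 and 488 of 3918 in WT samples. The part of this make-up in the all-cell differences was not tested.

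In the chimeras the order was the reverse. The ∆Foxp3 samples 1, 2 and 3 were at 38.2%, 36.7% and 37.8% and the WT samples at 33.0%, 34.7% and 34.2%, means of 37.6% ± 0.798 and 34.0% ± 0.896 (SD, n = 3 each), 3.61 points higher in ∆Foxp3. The groups did not overlap, and the exact two-sided permutation p of 0.1 is the smallest that 3 against 3 samples can give. Within the first and the second channel the difference was 3.28 and 3.11 points, and in the V3 intact mice -10.5 and -9.74 points. Of 2136, 909 and 2075 cells in chimera ∆Foxp3 samples 1 to 3, 51, 44 and 47 were annotated Treg and 274, 214 and 257 activated Tconv. Of 747, 1850 and 839 cells in chimera WT samples 1 to 3, 73, 162 and 74 were Treg and 159, 313 and 153 activated Tconv. The part of this make-up was not tested. Sorted Treg samples were at 29.7% and 25.9% and sorted Tconv samples at 38.6% and 35.1%, a difference of -9.03 points, or -8.84 and -9.22 within the channels.

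**Figure D1:**
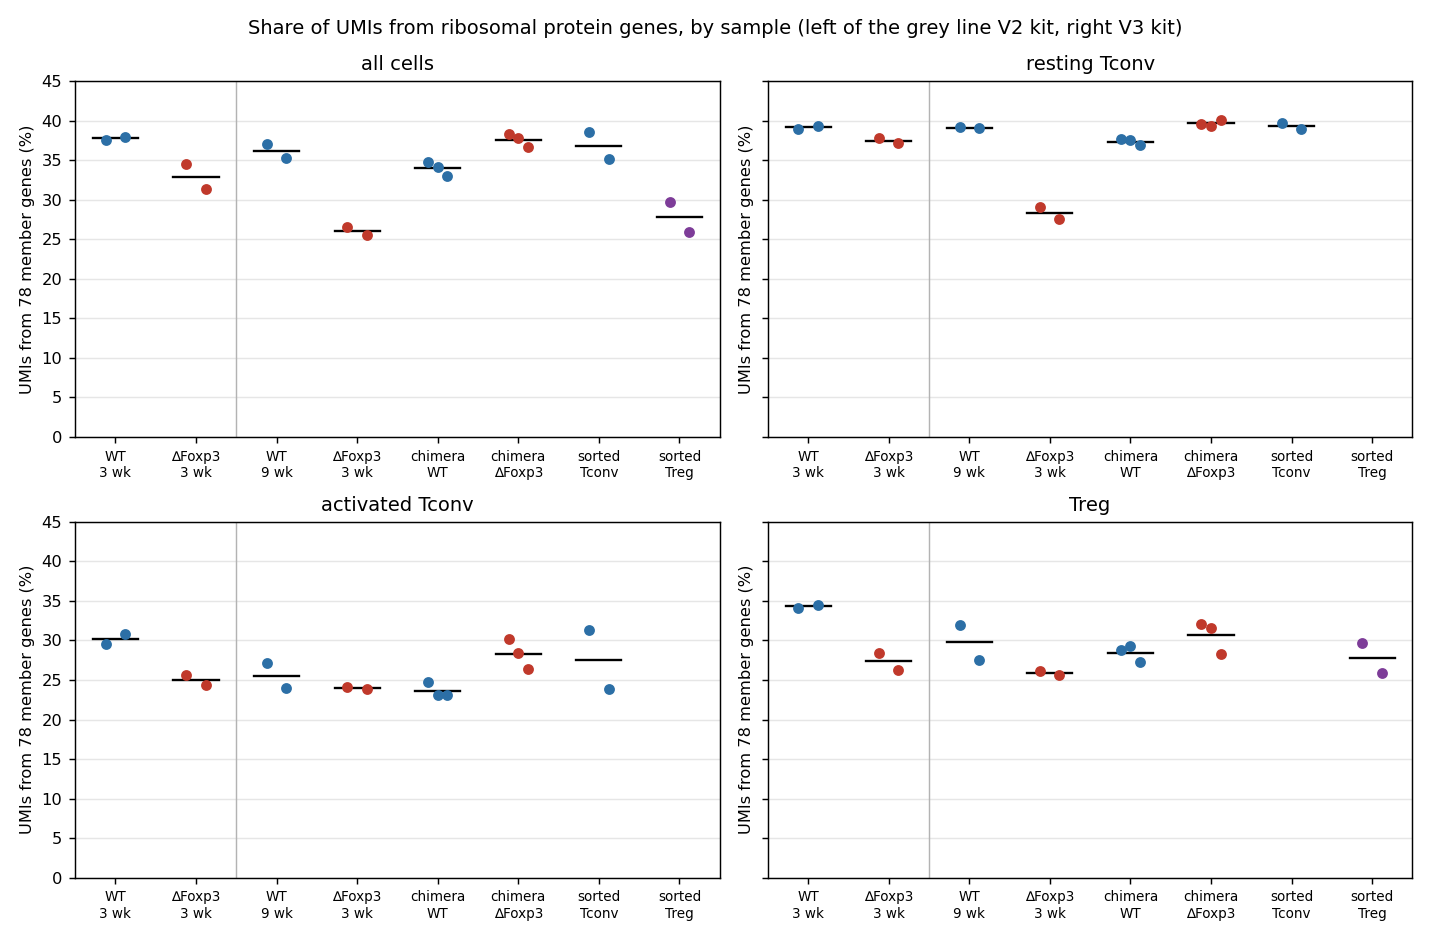
Share of UMIs from the 78 genes (%, vertical axis) in every sample of each group (horizontal axis), for all cells and for the annotated classes, V2 groups left and V3 groups right of the grey line; points are samples and short lines group means. In all cells the V3 ∆Foxp3 samples (25.5% and 26.5%) lie below every V3 WT sample, while the chimera ∆Foxp3 samples (36.7% to 38.2%) lie above the chimera WT samples (33.0% to 34.7%).

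The share also followed the authors' classes of cells. In each of 16 samples with both classes it was lower in activated than in resting Tconv cells, by 3.67 to 15.1 points (median -12.1), and in 14 of 14 samples it was lower in annotated Treg than in resting Tconv cells (median -8.03). These classes were made from the same cells, so the differences are a description. The V3 ∆Foxp3 samples stood apart with the smallest gaps, -5.04 and -3.67 points, where the V3 WT samples had -12.1 and -15.1. The gap was -12.1 and -12.8 points in V2 ∆Foxp3 and -9.38 and -8.44 in V2 WT samples, so the order of the genotypes differed between the experiments. Exact permutation p-values for the genotype difference of the gap were 0.333 in both, the smallest that n = 2 against 2 allows, and 0.2 in the chimeras (means -11.3 and -13.7 points, n = 3 each).

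Among the annotated clusters the resting Tconv cluster with the most cells had the highest share with either kit, 39.0% in V2 and 37.7% in V3 (pooled over samples). In V2 the lowest were Th1 (24.5%), activated Treg (24.7%) and tissue-like Tconv cells (25.1%). In V3 the lowest with over 20 cells were tissue-like Treg (21.4%), dividing activated Tconv (22.7%) and activated Treg cells (23.2%), while resting Treg cells were at 33.7%. The pooled value of the dividing cluster hides a split by sample. It was at 21.5% and 21.6% in the V3 ∆Foxp3 samples and at 34.4% in chimera ∆Foxp3 1. Other V3 samples had under 20 such cells. In V2 it was at 24.6% and 21.1% in ∆Foxp3 and 34.0% and 35.6% in WT samples. The clusters called activated, dividing, tissue-like, Th1 and Tfh all lay under 30% when pooled over samples, and the clusters called resting above 33%. In single samples of either kit the 2 kinds of cluster overlapped. Resting clusters went down to 26.1% in V3 and 29.3% in V2, and activated ones up to 34.4% and 35.6%. The share also moved with the depth of a cell. Within a sample, Pearson's r between a cell's share and its log2 UMI total had a median of 0.47 in resting, 0.18 in activated and 0.33 in Treg cells, and was negative in 2, 5 and 1 of 16 samples. Both values come from the same cell's counts, so this is a description, and the part of depth in the differences between groups was not tested.

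Within the classes, the genotype groups of the intact V3 mice were apart in resting cells and overlapped in activated ones. Resting Tconv cells held 29.1% and 27.5% in ∆Foxp3 and 39.2% and 39.0% in WT samples (-10.8 points). Activated Tconv cells held 24.1% and 23.8% against 27.1% and 23.9%, overlapping groups, so the difference of -1.57 points was within the spread (exact permutation p = 0.667, n = 2 each). In V2 the order was the other way round: resting cells differed by -1.66 points (37.8% and 37.1% against 39.0% and 39.3%) and activated cells by -5.22 points (25.7% and 24.3% against 29.6% and 30.8%). In the chimeras ∆Foxp3 cells were higher by 2.28 points among resting and 4.64 points among activated cells, with no overlap between groups (exact permutation p = 0.1, n = 3 each, the smallest possible). Annotated Treg cells differed by -6.94 points in V2 and -3.90 points in V3 between the genotypes, without overlap, and by 2.19 points in the chimeras, where the groups overlapped (exact permutation p = 0.3, n = 3 each). The V3 value was -1.70 points without WT 1 and -6.10 without WT 2, and the chimera value 3.35 without ∆Foxp3 2.

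The 2 parts of the ratio were also read as UMIs per cell. In the V3 intact mice a ∆Foxp3 cell held on average 1906 and 2572 UMIs of the 78 genes and a WT cell 1987 and 2405, overlapping ranges. All other nuclear genes together gave 4912 and 7007 UMIs per ∆Foxp3 cell and 2988 and 3925 per WT cell, with no overlap. In V2 the members gave 1094 and 927 UMIs per ∆Foxp3 cell and 1061 and 1102 per WT cell, and other genes 2001 and 1963 against 1684 and 1725. Sorted Treg cells had fewer member UMIs than sorted Tconv cells (1491 and 1649 against 2062 and 2264), beside overlapping numbers from other genes (3178 and 4303 against 2896 and 3729). In the chimeras both ranges overlapped between the genotypes, 2077 to 2421 in ∆Foxp3 against 1783 to 2214 in WT for the members and 3072 to 3755 against 3030 to 3868 for other genes. UMIs per cell depend on the depth of each library, which was not equal between samples.

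**Figure D2:**
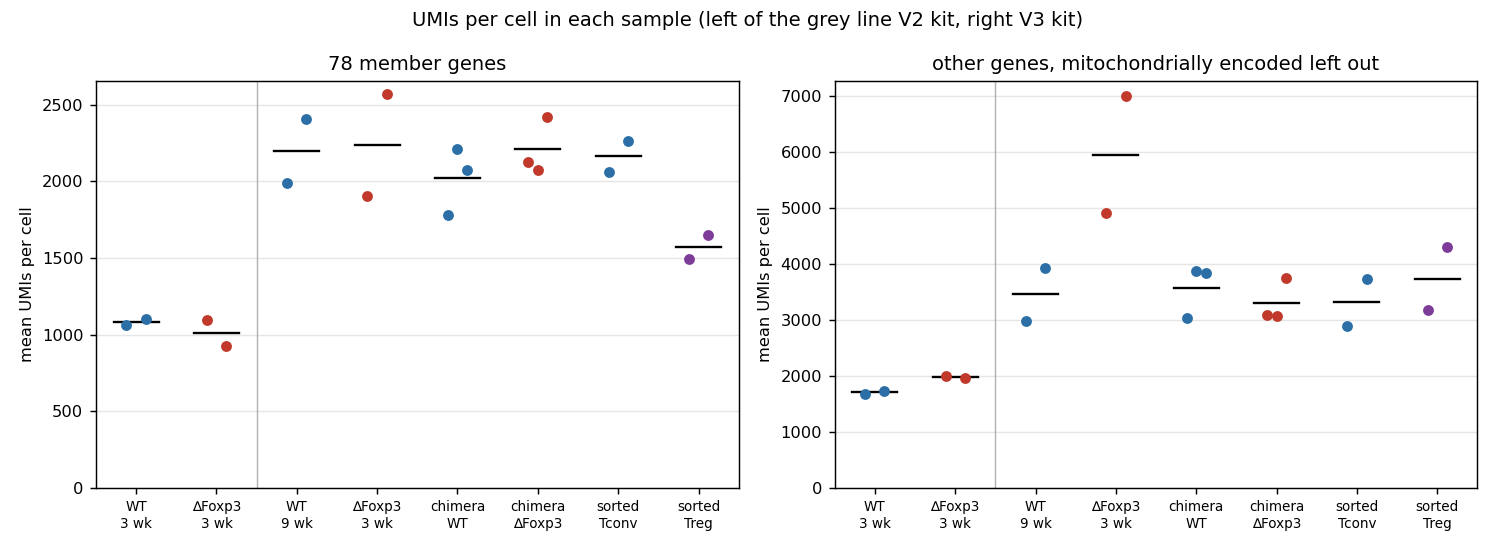
Mean UMIs per cell (vertical axes) from the 78 genes (left) and from other nuclear genes (right) in every sample, by group, V2 groups left and V3 groups right of the grey line. The V3 ∆Foxp3 samples overlap the V3 WT samples for the 78 genes (1906 and 2572 against 1987 and 2405) and lie above them for other genes (4912 and 7007 against 2988 and 3925).

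Tested gene by gene in the V3 intact mice, nearly the whole set fell in ∆Foxp3 cells relative to the other genes: 73 of 78 were lower and 2 higher (edgeR quasi-likelihood test, Benjamini-Hochberg adjusted p under 0.05 over 10918 genes). Of all genes tested, 20.9% were lower and 22.1% higher. The median log2 fold change was -0.63 for the members, -0.67 for the small and -0.61 for the large subunit, beside -0.0047 for all genes. Fold changes here are scaled by TMM, which sets the bulk of genes to no change, and are relative to it.

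Rps24, a small subunit protein needed for ribosomal RNA processing, fell most. It was at 6363 and 5755 CPM in ∆Foxp3 and 12981 and 11596 CPM in WT samples, and the log2 fold change was -1.24 ± 0.127 (SE, adjusted p = 2.39e-06 by edgeR). Both ∆Foxp3 samples lay below every other V3 sample, the lower sorted Treg sample at 7223 CPM included. Rps29, a zinc finger protein of the small subunit, was at 5792 and 5741 against 11215 and 10825 CPM (log2 -1.16, adjusted p = 3.73e-07 by edgeR). Rps27, another zinc finger protein, was at 3342 and 3056 against 6379 and 5909 CPM (log2 -1.16, adjusted p = 3.98e-07 by edgeR). In all 3 genes the groups were far apart and replicates close together. Rpl12, at the base of the stalk, had means of 2964 and 5691 CPM (log2 -1.16), and Rplp1 of the same stalk 5331 and 9596 CPM (log2 -1.07).

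At the other end were members that hardly moved. Among the weakest that passed were Rpl7a (log2 -0.27) and Rpl41, the smallest ribosomal protein (log2 -0.20, adjusted p = 0.0322 by edgeR). Rpl41 had nearly equal CPM, 5816 and 6277 in ∆Foxp3 and 5650 and 6236 in WT samples, and its log2 value turned to 0.03 when library totals replaced TMM. Among those not past the threshold were Rpl27 (log2 -0.08, adjusted p = 0.395) and Rpl29 (-0.04, adjusted p = 0.744), both by edgeR. Rpl29 was above WT in plain CPM, 2815 and 2644 against 2375 and 2431, so its direction depends on the scaling. The 2 members that rose were Rps27l and Rpl39l, described with their paralogs.

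Library totals in place of TMM raised the median of all genes by 0.21 (log2) and that of the members to -0.41. This left 65 lower and 3 higher members, with 3658 higher and 1373 lower among all genes where TMM gave 2416 and 2278. The distance of the members from all genes was -0.63 with TMM and -0.62 with library totals. Keeping only cells at or under 5% mitochondrial UMIs, which drops 48.2% to 98.3% of the V3 cells of a sample, left 1 lower member and turned Rpl7a (0.28) and Rpl41 (0.23) above 0. That filter drops 793 of 814 and 335 of 352 V3 WT cells, and 508 of 1001 and 451 of 936 V3 ∆Foxp3 cells. The count under it therefore rests on very few WT cells. Dropping only the cells above 10% left 73 lower members.

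Markers of other states and cells moved with this comparison. The 6 genes of the activation list (Cd44, S100a4, S100a6, Itgb1, Cxcr3, Ccl5) summed to 9132 to 10130 CPM in ∆Foxp3 and 1088 to 1678 CPM in WT samples. The 8 genes of the CD8 T and NK list, which includes Nkg7 and Gzma, summed to 1059 to 1128 against 120 to 141 CPM, with 2 of 8 at 0 in ∆Foxp3. The sum of the B cell list was lower (137 to 152 against 228 to 263 CPM, none of 11 genes at 0), while of its 8 genes tested 4 were higher and 2 lower. The myeloid list had a higher sum (345 to 353 against 263 to 288 CPM, none of 12 at 0 in ∆Foxp3). The dividing list summed to 814 to 1614 against 177 to 297 CPM, with 8 of 8 genes higher, and the resting list to 1732 to 1979 against 2534 to 2949 CPM, with 5 of 6 lower. The Treg list summed to 779 to 852 against 213 to 495 CPM (none of 7 genes at 0). The plasma cell list summed to 71.9 to 78.4 against 38.7 to 41.2 CPM, with 2 of 2 tested genes higher. Mitochondrially encoded genes made up 5.06% of UMIs in ∆Foxp3 and 7.23% in WT. Without cells carrying defining markers of other cell types the share difference was -10.2 points, and without all cells carrying 2 or more UMIs of those marker lists it was -7.91 points. The part of these lists in the result was not tested.

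In resting Tconv cells of the same mice 74 members were lower and 2 higher (of all 10182 genes, 19.2% lower and 22.2% higher), with a median log2 fold change of -0.68. Rps24 had means of 6826 and 13607 CPM (log2 -1.28), Rps29 -1.22, Rps27 -1.18, Rpl12 -1.18 and Rpl5, which binds the 5S ribosomal RNA, -1.14, while the 5% mitochondrial filter left 10 lower members. That filter leaves very few V3 WT cells. The class called resting was not alike in the 2 genotypes: within it 6 of 6 activation markers (median log2 4.99) and 8 of 8 dividing markers (median log2 2.94) were higher in ∆Foxp3 cells, and 5 of 6 resting markers (median log2 -1.58) were lower. Their part in the result was not tested. In activated Tconv cells Rps27 alone was lower (log2 -0.58, adjusted p = 0.0383 by edgeR) and Rpl27 alone higher (0.35, adjusted p = 0.0473), out of 78 (of all 8744 genes, 4.7% lower and 5.31% higher). The members' median there was -0.06. At an unadjusted p under 0.05 there were 3 lower and 7 higher. With the 10x channel as a term 3 were higher and 3 lower. The call of Rpl27 was lost without any 1 of the 4 samples and that of Rps27 without any but V3 WT 2, and without V3 WT 1 the share difference turned to 0.0133 points, and without V3 WT 2 it was -3.15.

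**Figure D3:**
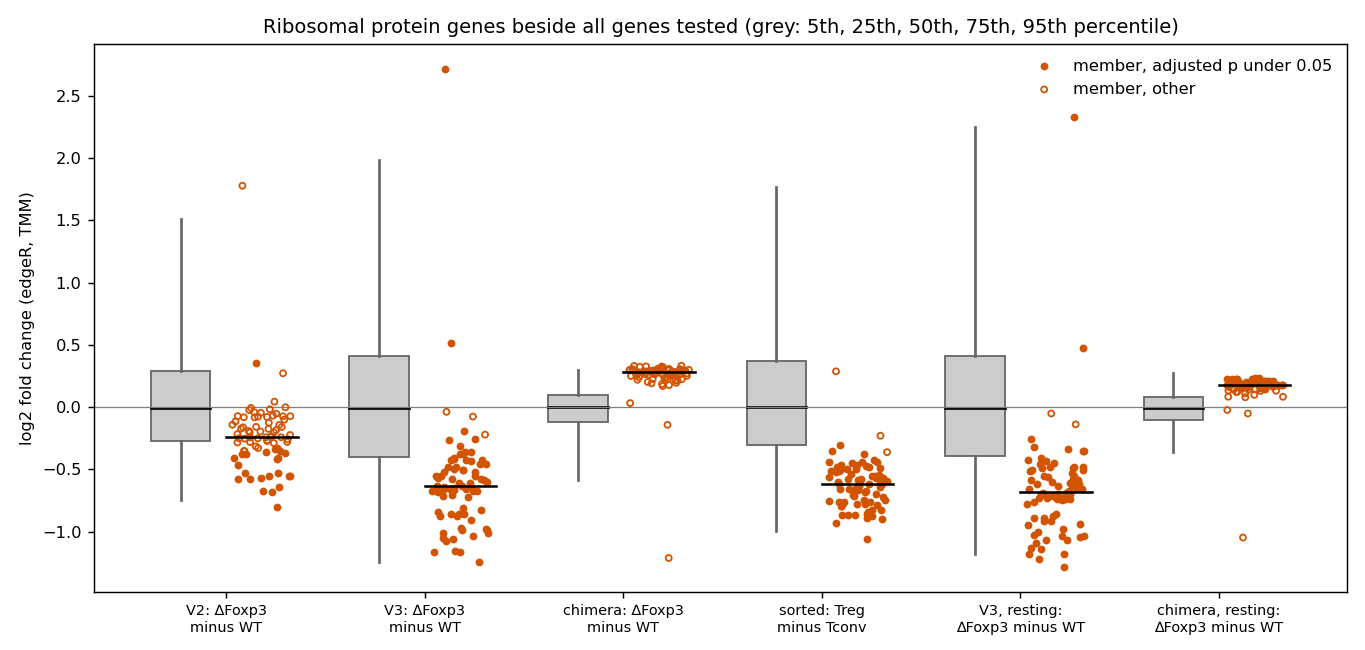
Log2 fold change (edgeR, TMM, vertical axis) of each member in each comparison (horizontal axis), filled where the adjusted p was under 0.05, beside grey marks for the 5th to 95th percentile of all genes tested. The members form a cloud around -0.63 in the V3 intact mice and -0.62 in sorted Treg against Tconv, and around 0.28 in the chimeras, with Rps27l and Rpl39l above the cloud in the intact mice.

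The V2 mice, matched for age but not for the fraction of reads in cells, gave a smaller change. In all cells 23 members were lower and 1 higher (edgeR, adjusted p under 0.05; of all 10675 genes, 9.61% lower and 14.4% higher), 10 of 47 in the large and 13 of 31 in the small subunit. The median log2 fold change was -0.24, and 74 of 78 values lay below 0. The count rests on the WT samples: 1 lower member was left without WT A and 0 without WT B, and 71 and 48 without ∆Foxp3 A and B. The median stayed between -0.15 and -0.34 in these 4 fits.

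Rps29 fell most, at 5385 and 6203 CPM in ∆Foxp3 and 8762 and 10611 CPM in WT samples (log2 -0.80 ± 0.122, adjusted p = 0.00778 by edgeR). The WT samples differ from each other by more than the ∆Foxp3 samples do, and the groups do not overlap. Rps27 (log2 -0.67), Rps28 (-0.64) and Rpl12 (-0.58) followed, and Rps24 was at 6260 and 5253 against 8007 and 7978 CPM (log2 -0.53, adjusted p = 0.0177 by edgeR). Rpl3, a protein near the peptidyl transferase centre, pointed the other way (5327 and 4706 against 4030 and 3970 CPM, log2 0.27) and missed the threshold (adjusted p = 0.0790 by edgeR).

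In V2 resting cells 18 members were lower and 4 higher (of all 10071 genes, 7.63% lower and 12% higher), with a median of -0.06. Lower were Rps29 (log2 -0.58), Rpl5 (-0.39) and Rpl35a (-0.39) among others. Higher were, among others, Rpl3 (5799 against 4125 CPM, log2 0.48, adjusted p = 0.000706 by edgeR), Rpl32 (0.20) and Rps9 (0.19). Without WT A there were 2 lower and 0 higher, without WT B 1 and 1, without ∆Foxp3 A 37 and 10, and without ∆Foxp3 B 32 and 19. In V2 activated cells 31 of 77 members were lower and 1 higher (of all 8170 genes, 6% lower and 9.16% higher, median -0.27), led by Rps27 (-0.77), Rps28 (-0.73), Rps29 (-0.68), Rpl12 (-0.62) and Rps21 (-0.62). There the lower count was 15 and 6 without WT A and B and 55 and 36 without ∆Foxp3 A and B.

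In V2 the Treg list summed to 459 to 638 CPM in ∆Foxp3 and 228 to 241 CPM in WT samples. The activation list summed to 4330 to 9117 against 893 to 1221 CPM. The CD8 T and NK list summed to 939 to 1575 against 173 to 225 CPM (1 of 8 genes at 0 in either genotype). The erythroid list summed to 133 to 606 against 129 to 183 CPM. Leaving out cells with defining markers of other cell types, which is up to 50.5% of a V2 sample, gave a share difference of -4.88 points in all cells, 20 lower members in all cells and 13 in activated cells. Leaving out every cell with 2 or more UMIs of those lists gave -2.21 points in all cells, and 0 lower members in activated cells.

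The members differed among themselves in a like order in the 2 experiments, which share no sample. Over 76 members (Rpl39l and Rpl24 left out for their low counts) the log2 fold changes of V2 and V3 had a Pearson r of 0.71 and a Spearman rho of 0.67 in all cells, 0.58 and 0.59 in resting and 0.82 and 0.80 in activated cells. The points share the same genes, base composition and strain background, and genes are not independent replicates, so this is a description. Rps29, Rps27 and Rpl12 were among the 5 lowest in both, and Rps27l and Rpl39l were the 2 highest in both.

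Sorted Treg cells had lower levels than sorted Tconv cells for 74 of 78 members and higher levels for none (of all 10918 genes, 6.01% lower and 6.16% higher, edgeR). The median log2 fold change was -0.62. Rps29 was at 6925 and 6033 CPM in Treg and 11855 and 10804 CPM in Tconv samples (log2 -1.06 ± 0.0978, adjusted p = 6.95e-06 by edgeR), and Rps24 at 8940 and 7223 against 13503 and 11907 CPM (log2 -0.90). The groups were clear of each other in both. Rpl12 (-0.93) and Rpl8 (-0.87) were close to them, and Rpl27 (-0.35) and Rpl41 (-0.38) passed with some of the smallest changes. Rpl7a (log2 -0.23, adjusted p = 0.0764), Rpl24 (-0.36), Rps27l (0.29, adjusted p = 0.248) and Rpl39l did not pass in edgeR. At an unadjusted p under 0.05 there were 75 lower and 0 higher, and DESeq2 gave 75 lower and 0 higher. With library totals the lower count was 65 and the median -0.37, with that of all genes at 0.25, and all genes gave 1627 higher and 360 lower calls in place of 673 and 656. The B cell list summed to 419 to 552 CPM in Treg and 210 to 221 CPM in Tconv samples (1 of 11 genes at 0 in Treg), the plasma cell list to 84.3 to 99.8 against at most 40.8 CPM, the activation list to 2134 to 3178 against 670 to 1905 CPM (2 of 6 genes higher, 1 lower) and the resting list to 1282 to 1461 against 2932 to 2960 CPM, with 6 of 6 resting genes lower. The part of the activation and resting lists was not tested. Without cells carrying defining markers the share difference was -9.12 points with 74 lower members, and without all cells carrying the lists' markers -5.12 points with 39. Keeping only cells at or under 5% mitochondrial UMIs left 0 lower members. That filter drops 356 of 362 and 137 of 148 sorted Tconv cells, so the count rests on very few cells. The order of the members resembled that of V3 ∆Foxp3 against WT (Pearson r 0.84, Spearman rho 0.76 over 76 members, no shared samples), again as a description.

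In the chimeras the members were higher in ∆Foxp3 cells by a small and even amount. In all cells the median log2 fold change was 0.28 and 76 of 78 lay above 0, with quartiles of 0.25 and 0.29. None passed the edgeR threshold in the fit of all V3 samples, where 0.211% of all genes were higher and 0.247% lower. At an unadjusted p under 0.05, 73 were higher and 1 lower, and DESeq2 gave 24 higher and 0 lower. With the 10x channel as a term 64 members were higher and 0 lower, and in a fit of the chimera samples alone 54 and 0. In those fits the median was 0.23 and 0.27. Rps24 was at 13479, 12426 and 13303 CPM in ∆Foxp3 samples 1 to 3 and 11068, 12131 and 11483 CPM in WT samples 1 to 3 (log2 0.31 ± 0.102, adjusted p = 0.233 by edgeR). The groups did not overlap, and the lowest ∆Foxp3 and the highest WT sample were close together.

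In resting chimera cells 50 members were higher and 0 lower (of all 10182 genes, 0.864% higher and 0.412% lower), with a median of 0.18. Rps18 had means of 4419 and 3997 CPM (log2 0.24 ± 0.0411, adjusted p = 0.00295 by edgeR), and Rpl26, Rps15, Rpl11 and Rps13 followed with 0.23 each. Rps29 was among the smallest that passed (log2 0.15). The 50 fell to 7 without WT 1, 31 without WT 2, 13 without WT 3, and to 11, 21 and 26 without ∆Foxp3 1, 2 and 3, and to 0 with library totals, without the 2 samples whose strain column disagrees, or under the marker-list or the 5% mitochondrial filter on cells. The medians over these 6 single-sample fits ran from 0.16 to 0.19. In activated chimera cells no member passed (of all 8744 genes, 0.0572% higher and 0.0801% lower), with a median of 0.36. There 69 were higher and 0 lower at an unadjusted p under 0.05, and DESeq2 gave 1 higher.

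The activation list summed to 507 to 993 CPM in chimera ∆Foxp3 and 901 to 1725 CPM in chimera WT samples, the Treg list to 134 to 321 against 406 to 611 CPM, and the erythroid list to 3.17 to 10.3 against 2.13 to 218 CPM. The part of these in the result was not tested. Without cells carrying defining markers of other types the share difference was 3.64 points.

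The difference of the 2 genotype effects was tested directly, as V3 intact ∆Foxp3 minus WT, less chimera ∆Foxp3 minus WT. It was below 0 for 74 members and above 0 for 2 (of all 10918 genes, 18.1% and 18.7%), with a median of -0.90 on the log2 scale. Rps24 (log2 -1.55, adjusted p = 5.35e-06 by edgeR), Rpl12 (-1.47), Rps27 (-1.46), Rps29 (-1.44) and Rplp1 (-1.38) led, and Rps27l (0.66) and Rpl39l (3.93) were the 2 above 0. Rpl29 (log2 -0.26, adjusted p = 0.0642) and Rpl24 (-0.51, adjusted p = 0.0691) did not pass in edgeR. With cells at or under 5% mitochondrial UMIs alone, which leaves very few V3 WT cells, 23 members were below 0. Age, strain and host differ between the 2 settings together with the genotype effect and cannot be told apart. Across 76 members the 2 effects had a Pearson r of -0.62 and a Spearman rho of -0.51 in all cells and -0.32 and -0.08 in resting cells, given as a description of genes that share libraries within each setting.

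**Figure D4:**
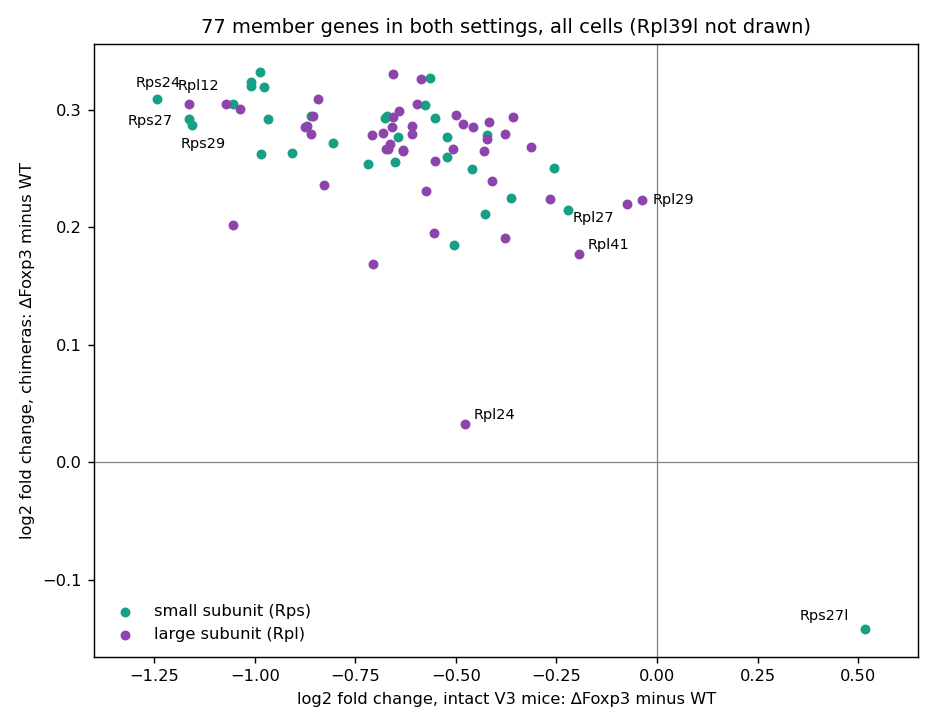
Log2 fold change ∆Foxp3 minus WT of 77 members in V3 intact mice (horizontal axis) and in chimeras (vertical axis), all cells, small subunit in green and large subunit in purple, Rpl39l not drawn. Nearly all points lie left of 0 and above 0, from -1.24 for Rps24 to -0.04 for Rpl29 on the horizontal axis, and Rps27l lies alone at the lower right.

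Rps27l lay on the other side of 0 from the members' median in all cells of the intact mice and of the chimeras. In V3 it was at 237 and 254 CPM in ∆Foxp3 and 129 and 169 CPM in WT samples (log2 0.52 ± 0.123, adjusted p = 0.0034 by edgeR), and in V2 at 196 and 228 against 157 and 161 CPM (log2 0.36, adjusted p = 0.0323 by edgeR). In both the groups were apart. It passed in V3 resting cells (log2 0.48) and V2 activated cells (log2 0.55, adjusted p = 0.00776 by edgeR). In the chimeras it was at 115, 114 and 112 CPM in ∆Foxp3 and 161, 123 and 132 CPM in WT samples, lower in ∆Foxp3 where the others were higher, though not past the threshold. Both V2 and V3 calls depend on a WT sample: without V3 WT 1 the V3 value was 0.35, and it missed the threshold, as did the V2 value without WT A (0.32) or WT B (0.39). Without cells carrying 2 or more UMIs of other cell types' marker lists the values were 0.11 in V3 and 0.13 in V2, below the threshold, and -0.10 in V3 resting cells. Its second channel sample was above its first by 0.38 (log2) in V3 WT.

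Set against its paralog, whose coding sequence is printed above, Rps27l separated the groups as follows. Per 1000 UMIs of Rps27 there were 70.9 and 83.3 of Rps27l in V3 ∆Foxp3 and 20.3 and 28.5 in V3 WT samples. In V2 the ratios were 37.5 and 36.4 against 19.4 and 16.9. In the chimeras they were 17.5, 17.5 and 17.4 in ∆Foxp3 and 28.1, 20.7 and 22.7 in WT samples, again the reverse order with no overlap. Sorted Treg samples had 38.8 and 58.6 and sorted Tconv samples 18.8 and 24.8. Resting V3 cells had 58.1 and 69.3 in ∆Foxp3 against 17.9 and 23.3 in WT, and activated V3 cells 85.3 and 99.7 against 32.4 and 52.3.

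**Figure D5:**
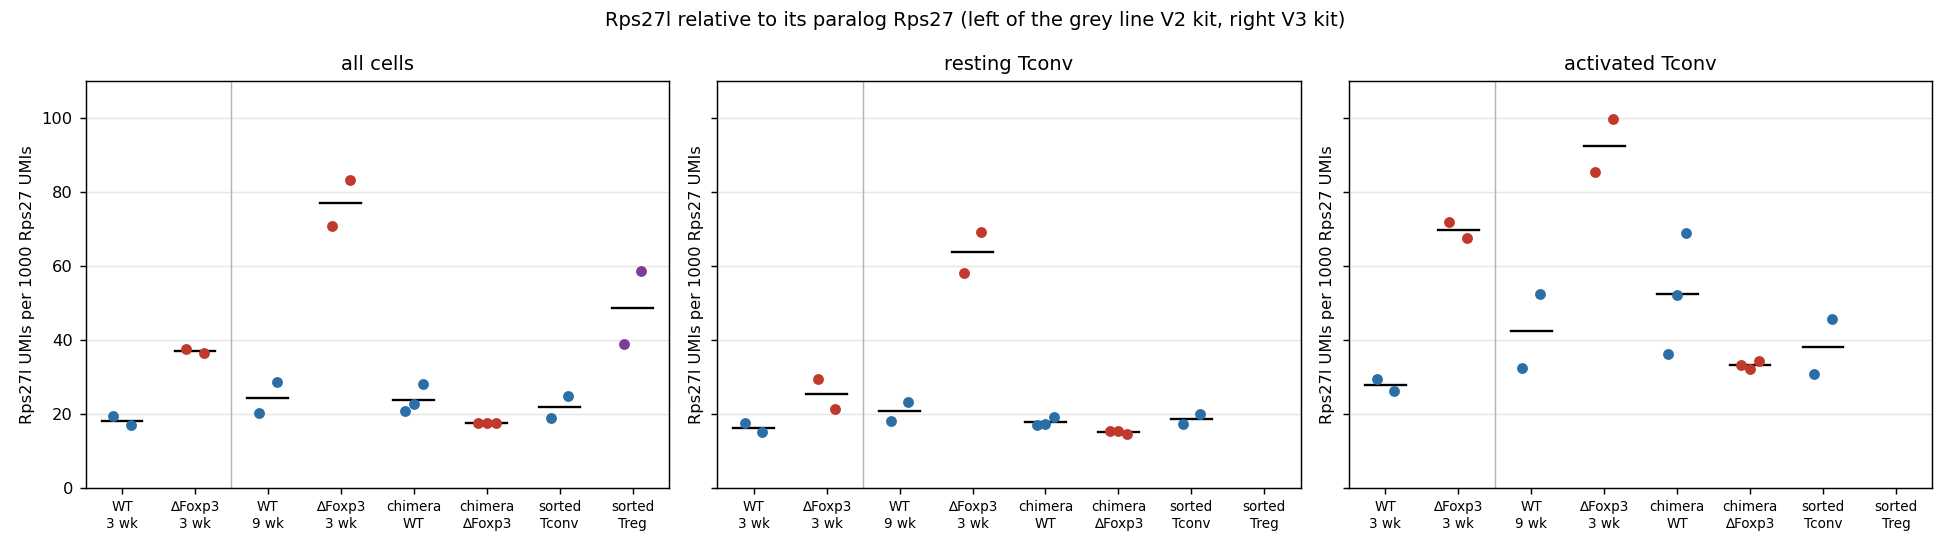
Rps27l UMIs per 1000 Rps27 UMIs (vertical axis) in every sample of each group, in all cells, resting Tconv and activated Tconv cells, V2 groups left and V3 groups right of the grey line. Both ∆Foxp3 groups of intact mice lie above their WT group in each panel (all cells, V3: 70.9 and 83.3 against 20.3 and 28.5), and the chimera ∆Foxp3 samples lie at 17.4 to 17.5 in all cells.

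Between the classes the members moved as a block with Rps27l outside it. Of 77 members (Rpl39l left out) 74 had lower CPM in activated than in resting Tconv cells in all 16 samples, with a median log2 difference of -0.50, as a description because the clusters were made from these cells. Rps20 (-0.89), Rps19 (-0.85), Rpl36a (-0.82), Rps29 (-0.82) and Rpl12 (-0.76) differed most. Rpl29 (-0.23), Rpl13a (-0.23) and Rpl27 (-0.20, lower in 14 of 16) differed least. Rpl24 had a median of 0.03, and Rps27l was higher in activated cells in 16 of 16 samples, by 0.18 to 1.03 (median 0.58).

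Rpl39l was counted in very few transcripts. V3 ∆Foxp3 samples held 80 and 70 UMIs and V3 WT samples 2 and 4, out of 2402201 to 9438617 UMIs per sample. The log2 fold change was 2.72 ± 0.739 (adjusted p = 0.00788 by edgeR), and it missed the threshold without V3 WT 1 (log2 2.07, adjusted p = 0.151). V2 ∆Foxp3 samples held 32 and 24 and V2 WT samples 23 and 4 UMIs (log2 1.78, adjusted p = 0.0602 by edgeR). Chimera ∆Foxp3 samples 1 to 3 held 2, 0 and 0 and WT samples 10, 1 and 1. Its partner Rpl39 was among the members that fell in V3 (6744 and 6828 against 9202 and 9312 CPM, log2 -0.67).

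Genes that act with the ribosome were read from lists. Of 10 other ribosomal genes, 10 were lower in V3 ∆Foxp3 cells (median -0.67), among them Rps3a1 (log2 -0.82) and Rpl22l1, the paralog of Rpl22 (-0.56). The 10 include the pseudogene symbols Rpl36-ps3 and Rpl9-ps6 and the symbols Rps3a2 and Rps3a3 beside Rps3a1. Whether their counts are independent of the genes they resemble was not tested. In V2 3 of 10 were lower, including Rpl22l1 (-0.58) and Rps3a1 (-0.39), and in sorted Treg 6 of 10. Of 39 ribosome biogenesis genes 27 were lower and 0 higher in V3 (median -0.53), including Nop10 (-0.95) and Dkc1 (-1.05) of the box H/ACA particle and the nucleolar chaperone Npm1 (-0.68), with 5 lower in V2 (Nop10 -0.53, Dkc1 -0.53) and 8 in sorted Treg. No biogenesis gene was higher in all cells of these 3 comparisons. The background shares are those given with each comparison.

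Translation factors were mixed: 17 of 38 were lower and 4 higher in V3, 8 lower and 6 higher in V2, and 15 lower and 0 higher in sorted Treg. The helicase Eif4a2 (V3 log2 -1.62, V2 -1.11), its cofactor Eif4b (-1.18, -0.50) and Eif5, which acts in start codon selection (-0.86, -0.61), were lower in both intact experiments, and Eif3m was higher in V2 (0.46). In sorted Treg the elongation factors Eef1a1 (-0.62) and Eef1b2 (-0.66) were lower, and in the chimeras Eef1d was higher in all cells (0.32, adjusted p = 0.0373 by edgeR) and in resting cells (0.28). Host genes of small nucleolar RNAs went in different directions: Snhg3 and Snhg4 were higher in V3 ∆Foxp3 cells (0.96, 0.84) and V2 ∆Foxp3 cells (0.43, 0.48) and lower in sorted Treg (-0.76, -0.94). Gas5, itself a TOP transcript, was higher in V2 (0.65) and in resting chimera ∆Foxp3 cells (0.22).

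The 75 nuclear genes of mitochondrial ribosomal proteins did not move as a group. In V3 15 were higher and 10 lower (median -0.01), in V2 12 and 3, and in sorted Treg 3 and 2, with Mrpl27 higher in both intact experiments (0.78 and 0.65). Mitochondrially encoded genes were lower in V3 for 12 of 14 (median -0.80), in V2 for 7 of 14 and in sorted Treg for 10 of 14, and mt-Nd3 was higher in chimera ∆Foxp3 cells (0.47). Among 26 genes of Myc and mTOR control, 7 were lower and 5 higher in V3. Sesn1, an inhibitor of mTORC1 signalling, was lower in ∆Foxp3 cells of both intact experiments (V3 -2.30, V2 -1.63) and higher in sorted Treg (1.24). Ddit4, another mTORC1 inhibitor, was higher in V3 ∆Foxp3 cells (1.41), and Myc was lower there (-1.24). In V2 Myc was not lower, at 53.9 and 41.2 CPM in ∆Foxp3 and 40.4 and 39.5 CPM in WT samples. The Myc antagonist Mxd1 was higher in V2 ∆Foxp3 cells (1.47) and in sorted Treg (2.22).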

How the data were processed

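Spleen CD4 T cells of 18 samples were measured by droplet RNA sequencing. The deposited values are whole UMI counts with the authors' cell annotation. For these counts the authors ran Cell Ranger (3.0.2) on genome build mm10, as the submitters' processing notes list them. The authors' deposited percent of mitochondrial genes per cell, Scrublet doublet score (0 doublets called, highest score 0.293) and, for V2, fraction of reads in cells and sequencing saturation were read as cell or library facts. The metadata name the V3 kit for all cells, but sample labels decided the kit here. The other metadata columns, 42 in number, stayed out.

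Counts were summed per sample and class (at least 20 cells) and tested with edgeR 4.0.16 in R 4.3.3 (quasi-likelihood, TMM, filterByExpr with a minimum count of 10, Benjamini-Hochberg under 0.05, prior count 2). The cell minimum was applied before the filters on cells, so gene refits under a filter could hold samples with fewer cells. V2 was fitted alone (4 samples) and V3 together (14 samples). Shares were compared by exact two-sided permutation tests. DESeq2 1.42.0 was an alternative. All 78 genes passed the low-count filter in every comparison but V2 activated cells (77, without Rpl39l). Chimera samples of the same number share a hashtag, but the labels name no mouse, so they are not treated as pairs.

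Named members are the 5 with the largest and the 5 with the smallest fold change among those called in a direction, the highest and lowest levels, and the paralogs, and up to 4 genes per related list with the lowest p. Members and lists were chosen with earlier results of these data known. Other members named, such as those that missed the threshold, were chosen after their values were seen. Some genes that the rule selects are not reported here.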

Additional observations from a re-analysis of the deposited data

Results flagged for a closer look

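The effect of genotype differed between the intact V3 mice and the chimeras when the difference itself was tested, as an interaction term in edgeR over 78 members. It was below 0 for 74 members and above 0 for 2. Rps24 had a log2 difference of -1.55, Rps27 one of -1.46, and Rps27l, above 0, one of 0.66. Age, the CD45.1 strain and the host differ between the 2 settings as well and cannot be told apart from the genotype effect.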

How the results depend on the processing

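Each result was refitted under other settings, and over 199 gene results 2600 of 3127 refits kept direction and side of the threshold, 511 lost the threshold, 6 gained it and 10 reversed. Counts of members are given as higher and lower calls. With library totals in place of TMM, higher members were 2 in V2 all cells, 1 in Treg against Tconv, 4 in V3 resting and 0 in chimera resting cells, lower members were 2 in V3 activated cells, and Rpl41 turned to 0.0257 in V3 all and 0.0329 in V3 resting cells and Rpl27 to 0.0577 in the difference between settings. All genes then gave 3846 higher and 978 lower calls for that difference (2042 and 1978 with TMM), 17 and 74 in the chimeras (23 and 27), 3786 and 1027 in V3 resting cells (2265 and 1957) and 18 and 75 in chimera resting cells (88 and 42). With DESeq2, higher members were 2 in V2 all cells, 1 in V3 all cells, 24 in chimera all cells, 2 in V2 resting, 1 in V3 resting, 0 in V2 activated (15 lower), 2 in V3 activated and 1 in chimera activated cells. Without a low-count filter there were 3 higher and 46 lower in V2 all cells, 66 and 1 in chimera all cells, 5 and 2 in V3 activated cells, 2 higher in V2 activated and 37 in chimera activated cells. With the replicate block, higher members were 2 in V2 all cells, 63 in chimera all cells, 66 in chimera resting cells (50 without it) and 3 in V3 activated cells, and no other count moved by over 1.5 times. Deviations of same-numbered chimera samples correlated with r of 0.0814, -0.0089 and 0.0245 over 8755 genes, and those of other pairs with up to 0.104. Same-numbered chimera samples always lay in different 10x channels, while some other pairs shared one. The check therefore cannot decide whether the numbers pair them. The r of same-lettered V2 samples was 0.0885. In the V3 intact and sorted groups the number coincides with the 10x channel, and r was 0.217 for ∆Foxp3 and WT and 0.154 for Treg and Tconv. With the channel as a term there were 64 higher in chimera all cells and 3 higher and 3 lower in V3 activated cells, and with the compared groups alone 54 in chimera all cells and 2 and 4 in V3 activated cells.

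Filters on cells moved more, and drop many cells: the marker-list filter 40.4% to 93.4% of a sample and the 5% mitochondrial filter 48.2% to 98.3% of V3 samples. The 5% filter leaves very few cells in the V3 WT and sorted Tconv samples. Under the marker-list filter the share differences were -2.21 (V2 all), -7.91 (V3 all), 2.54 (chimera all), -5.12 (Treg), -1.12 (V2 resting), -7.36 (V3 resting) and -3.77 (V2 activated), higher members were 2 in V2 all, 8 in V2 resting and 0 in V3 all, V3 resting, V3 activated, V2 activated and chimera resting cells and in the difference between settings, lower members were 39 in Treg and 0 in V2 activated cells, and Rps27l was -0.10 in V3 resting cells. Under the 5% filter higher members were 0 in V3 all, resting and activated and in chimera resting cells, 4 in chimera all cells and 1 in the difference, lower members were 1 in V3 all, 0 in Treg, 10 in V3 resting, 0 in V3 activated cells and 23 in the difference, and the chimera share difference was 5.01. It reversed Rpl7a (0.28), Rpl22l1 (0.12) and Rpl41 (0.23) in V3 all cells, Dkc1 (0.0313) in Treg, Rpl41 (0.11) in V3 resting cells and Rpl41 (0.0682) in the difference. The cause was not tested. Alternatives chosen after seeing the data were the 10% mitochondrial filter (1 higher in chimera all, 0 in V3 activated cells), the defining-marker filter (1 higher in chimera all, 13 lower in V2 activated cells) and leaving out the 2 chimera samples with a disagreeing strain column (1 higher in the difference, 0 in chimera resting cells). Share differences without mitochondrial UMIs in the total were -11.6 (V3 all) and -12.3 (V3 resting), and as medians over cells -12.6 (V3 all), 4.75 (chimera all), -11.6 (V3 resting) and -8.22 (V2 Treg). Leaving out 1 sample at a time gave 0 to 7 higher and 0 to 71 lower members in V2 all, 0 to 19 and 1 to 37 in V2 resting, 0 to 2 and 6 to 55 in V2 activated, 0 to 2 and 62 to 71 in V3 all, 0 to 2 and 73 to 74 in V3 resting, 0 and 0 to 1 in V3 activated, 0 to 1 and 0 in chimera all, 7 to 31 and 0 in chimera resting, 0 and 0 in chimera activated cells, 0 and 50 to 74 in Treg and 1 to 2 and 72 to 75 in the difference, and a share difference of -3.15 to 0.0133 in V3 activated cells. A lone sample left in a group was assumed to vary like the other groups. Depth limits Rpl39l and Rpl24, with 256 and 2488 UMIs in all samples.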
